A study of Mus musculus with 54 samples.

Results

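The synaptonemal complex and axis genes are 9 genes that encode structural proteins of meiotic chromosomes: *Sycp1*, *Sycp2*, *Sycp3*, *Syce1*, *Syce2*, *Syce3*, *Tex12*, *Hormad1* and *Hormad2*. They were chosen by symbol from the 23284 genes of each deposited count table, and all 9 were found in both tables and passed the filter on low counts in every comparison. RNA was sequenced from 35 libraries in 12 groups, of which 11 groups held 3 libraries and the WT spermatocytes held 2. In WT both genes were intact (Ctcf+/+ with Boris+/+), CTCF HET was Ctcf+/- with intact *Boris*, and BORIS KO was Boris-/- with intact *Ctcf*. The compound mutant CM joined Ctcf+/- with Boris-/-, and the titles call it DKO although the mice keep an intact *Ctcf* allele. *Boris* is listed in the tables as *Ctcfl*. Each preparation pooled 4 male C57BL/6 mice aged 3 months, so no value belongs to a single animal. The study set these genotypes side by side to ask how CTCF and its testis paralog BORIS act together in spermatogenesis. Whole testis here means a germ cell-enriched suspension of digested testes, while round spermatids and spermatocytes were purified from it by elutriation and sorting. The labels give a purity of 93.7 ± 2.3% for round spermatids and 81.5 ± 3.7% for spermatocytes, judged by staining for SYCP3, the protein of a gene described here.

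In early meiosis each chromosome folds into loops along a protein axis that holds cohesins, SYCP2, SYCP3 and the HORMA-domain proteins HORMAD1 and HORMAD2. When homologous chromosomes pair, the axes become the lateral elements of the synaptonemal complex and are joined by SYCP1, whose rods cross the gap between them and meet in a central element of SYCE1, SYCE2, SYCE3 and TEX12. The complex is complete in pachytene spermatocytes and is taken apart before the meiotic divisions, so its proteins are best known from spermatocytes, although transcripts of meiotic genes can still be found in haploid cells.

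The labels were checked against the targeted genes and cell type markers before the 9 genes were read. Values are CPM, that is, counts scaled to a common library total after TMM correction, in replicate order. *Ctcf* in whole testis was at 47, 39.9 and 40.7 CPM in WT and 27.4, 26.9 and 24 CPM in CM (log2 fold change -0.74 ± 0.21 (SE), adjusted p = 0.0329), and at 27.6, 30.2 and 22.3 CPM in CTCF HET, where it did not pass the test (adjusted p = 1). In the purified cells the libraries labelled CM did not have a lower mean of *Ctcf* than WT, with 172, 44.6 and 39.5 CPM against 48.7, 31.3 and 29.4 CPM in WT round spermatids and 85.9, 34 and 33 CPM against 35.2 and 33.3 CPM in WT spermatocytes. The spermatocyte libraries labelled CTCF HET were at 44.4, 52.4 and 32.3 CPM. In these 3 groups *Ctcf* did not show the labelled loss, whether a label is wrong cannot be told from these values, and each direction given for them below is that of the libraries so labelled. *Ctcfl*, the other targeted gene, had a log2 fold change below 0 in CM round spermatids but did not pass the test. In CM against WT spermatocytes and whole testis it did not pass the filter on low counts. In CTCF HET round spermatids *Ctcf* and *Ctcfl* had log2 fold changes below 0, but neither passed the test. Their summed levels there overlapped those of WT (24.7 to 36 CPM against 32.8 to 51.6). *Ctcfl* in round spermatids was at 2.84, 5.12 and 3.38 CPM in WT and 1.97, 2.09 and 2.39 CPM in BORIS KO (log2 fold change -0.78 ± 0.25 (SE), adjusted p = 0.0248), so transcript was still counted in the knockout, and which part of the gene the counts cover is not known. All 9 round spermatid markers (*Prm1*, *Tnp1*, *Acrv1* and others) were higher in WT round spermatids than in WT spermatocytes, with summed levels of 1068 to 1265 and 31.4 to 31.7 CPM. Markers listed for spermatocytes did not all go the other way. Of 6 preleptotene to zygotene markers 3 were higher in round spermatids and 3 lower (sums 269 to 308 against 942 to 1104 CPM). Of 6 pachytene and diplotene markers 2 were higher and 4 lower (6915 to 7171 against 10971.5 to 11783 CPM). Total counts ran from 10437683 to 42055813 in whole testis, from 47740650 to 98545423 in round spermatids and from 53337530 to 88946702 in spermatocytes. The CTCF HET spermatocyte libraries listed the fewest genes with a count (12018 to 13406). The CM spermatocyte libraries listed 14145 to 16666, and those of WT and BORIS KO 17631 to 17970. The CM round spermatid libraries listed 14932 to 16670, the fewest in the third, against 17504 to 18978 in the other round spermatid libraries. The second CM round spermatid library stood apart, with *Stra8* at 202 CPM against 9.61 and 21 in the other CM libraries, and the first had the high *Ctcf* value. Results in CM round spermatids are therefore also given for the third library alone.

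CTCF, BORIS, RNA polymerase II (Pol2) and the promoter mark H3K4me3 were mapped by ChIP-seq in whole testis, with 1 deposited peak list for each antibody and genotype. In mm9 the axis genes *Hormad1*, *Hormad2*, *Sycp2* and *Sycp3* lie at chr3:95363599-95391593, chr11:4245817-4341108, chr2:178079998-178142390 and chr10:87922314-87935981. *Sycp1* lies at chr3:102622422-102740023, and the central element genes *Syce1*, *Syce2*, *Syce3* and *Tex12* lie at chr7:147963128-147973753, chr8:87396010-87412120, chr15:89220605-89240934 and chr9:50365253-50369373. A CTCF peak lay within 1 kb of an annotated start in WT at 1 of the 9 genes, *Sycp2*, whereas 28.0% of 20073 protein-coding genes had such a peak. In CM the CTCF list again held 1 of the 9, *Sycp2*, against 9.83% of all genes. BORIS peaks in WT were found at 2 of the 9, *Sycp2* and *Syce2*, against 14.4% of all genes. Widening the window to 10 kb on each side of the gene left these counts of genes as they were. Of all genes, 64.8%, 50.2% and 31.4% then had a WT CTCF, a CM CTCF and a WT BORIS peak. The lists hold no replicates, so these shares carry no error.

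At *Sycp2*, the WT CTCF peak spanned chr2:178141654-178142703 with a height of 2558, higher than 89.8% of the list, and its summit lay 51 bp upstream of the nearest annotated start. The CM CTCF peak spanned chr2:178142300-178142598 with a height of 374, above 59.9% of its own list, and its summit lay 54 bp upstream. The WT BORIS peak spanned chr2:178142043-178142576 with a height of 380, above 93.6% of its list, and its summit lay 73 bp upstream. All 3 summits thus lay just outside the first exon. At *Syce2* there was a BORIS peak but no CTCF peak: it spanned chr8:87396060-87396188 with a height of 44.0, above 14.9% of the list, and its summit lay 34 bp downstream of the nearest annotated start. The heights have no stated normalisation and were not compared between lists.

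The sequences under these peaks are shown because *Sycp2* and *Syce2* are the members at whose starts a CTCF or BORIS peak was listed. Capitals mark the letters AGGGGGC, a core of the known CTCF motif that BORIS shares, or their reverse complement. Both are written 5′ to 3′ along the strand of the gene, the first from the minus strand at chr2:178142391-178142576 and the second, limited to 30 bases, from the plus strand at chr8:87396092-87396121, in mm9.
Sycp2 start: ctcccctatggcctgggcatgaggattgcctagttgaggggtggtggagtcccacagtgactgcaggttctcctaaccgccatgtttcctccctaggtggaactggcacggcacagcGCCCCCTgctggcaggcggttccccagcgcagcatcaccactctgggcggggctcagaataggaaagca
Syce2 start: AGGGGGCgtggcgtgcgcagagggcgctga

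In *Sycp2* the marked letters lay 4 bp from the BORIS summit, 12 bp from the WT CTCF summit and 9 bp from the CM CTCF summit. In *Syce2* they lay 28 bp from the BORIS summit. On either strand, AGGGGGC occurred within 100 bp of 38.3% of the 7652 WT BORIS summits, 19.0% of the 34625 WT CTCF summits and 21.2% of the 21525 CM CTCF summits. It occurred in 10.6% of 32851 RefSeq promoters of 300 bp (GRCm38.p6, 250 bp before to 50 bp after a start). Counted by gene, with a match in any of its promoters, it occurred in 3 of the 9 genes, *Sycp2*, *Syce2* and *Syce3*. The share by gene was not counted over all genes, so these values are in unlike units. A match is a description of the letters and not a binding site.

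Pol2 and H3K4me3 marked all 9 genes. A Pol2 peak lay within 1 kb of a start of 9 of 9 genes in WT and in CM, against 40.9% and 48.3% of all genes, and an H3K4me3 peak at 9 of 9 in both, against 54.0% and 58.9%. The start of *Tex12* carried the weakest Pol2 peaks, with MACS scores of 54.9 in WT and 50.3 in CM, where the lists begin at about 50. The start of *Syce2* had a score of 2615 in WT and 1745 in CM, and that of *Sycp3* had 2109 in WT and 3025 in CM. The gene body of *Sycp1* held more Pol2 peaks in the WT list than in the CM list, and the *Sycp1* start scored 1876 in WT and 1279 in CM. Depth behind the lists is unknown and each is used here without replicates, so a difference in score or in the number of peaks between WT and CM was not tested.

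**Figure D1:**
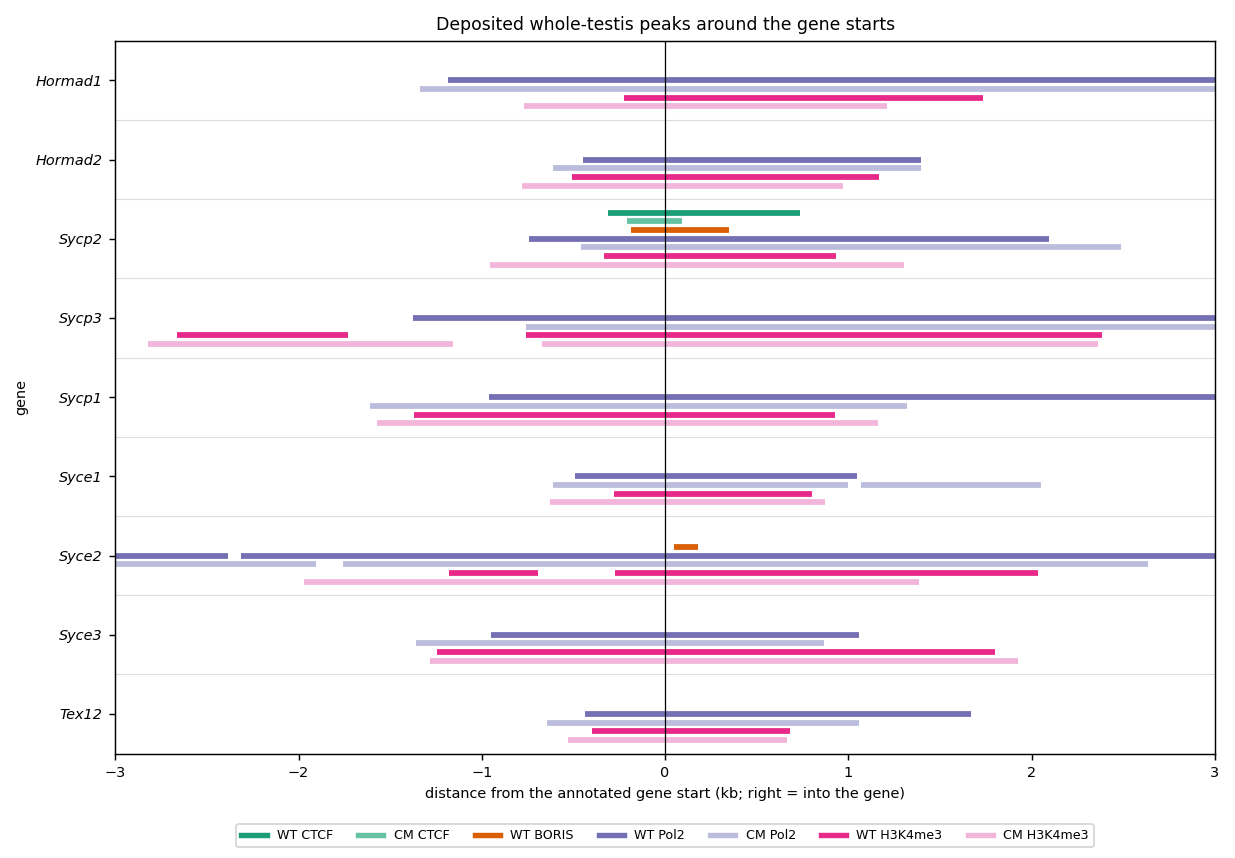
Deposited whole-testis peaks around the annotated start of each gene. The x axis gives the distance from the start in kb, with positive values inside the gene, and each bar is 1 peak coloured by antibody and genotype. Pol2 and H3K4me3 bars cross the start of all 9 genes in WT and CM, CTCF bars appear at Sycp2 alone and BORIS bars at Sycp2 and Syce2.

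In WT cells, genes whose products sit in the same structure were expressed at very different levels. Per length, in RPKM (CPM divided by the exon length in kb, mean ± SD), WT spermatocytes (n = 2) were highest for *Syce1* (558 ± 21.8), *Sycp2* (455 ± 79) and *Sycp3* (330.2 ± 51.6), the last pair within their spread. *Hormad1* (139.6 ± 23) and *Sycp1* (132 ± 28.5) came next and did not differ beyond their spread. The other central element genes were lower, with *Tex12* at 30.5 ± 4.56, *Syce3* at 15.5 ± 0.225 and *Syce2* at 6.28 ± 0.00810, and *Hormad2* was the lowest at 3.01 ± 0.317. *Syce1* and *Syce2*, neighbours in the central element, thus stood at the top and near the bottom of the order.

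In WT round spermatids (n = 3) the order began with *Syce1* at 580.2 ± 29.1 RPKM, *Sycp2* at 133 ± 19.7 and *Sycp1* at 114 ± 27.5, the last pair within their spread. *Sycp3* followed at 84.7 ± 11.1 and did not differ from *Sycp1* beyond their spread. Then came *Hormad1* at 47.8 ± 6.94, *Syce3* at 31.2 ± 2.30 and *Syce2* at 16.7 ± 1.76. *Tex12* at 5.30 ± 0.333 and *Hormad2* at 1.97 ± 0.278 closed the order. In WT whole testis (n = 3), which was prepared and aligned differently and lies in another table, *Syce1* again led at 302 ± 17.9, but *Syce2* at 108 ± 26 and *Syce3* at 78.7 ± 16.2 came next, within their spread of each other. *Sycp2* (26.9 ± 2.54) and *Sycp3* (24.4 ± 4.07) did not differ beyond their spread, and neither did *Hormad1* (15.6 ± 1.81) and *Sycp1* (11.5 ± 2.42) or *Tex12* (4.57 ± 1.27) and *Hormad2* (3.28 ± 0.663). Whole testis RNA was depleted of rRNA whereas the purified cells were sequenced from poly(A) RNA, so levels were not tested between the tables.

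Between the purified cells of WT, 5 of the 9 genes were lower in round spermatids than in spermatocytes and 2 were higher, at an adjusted p under 0.05 in edgeR's quasi-likelihood test with Benjamini-Hochberg adjustment over all genes. All adjusted p-values below come from this test, fitted on the groups compared. Of all 16052 genes tested, 34.2% were lower and 35.8% were higher, so the count alone does not set the members apart. *Tex12* had 20.8 and 16.8 CPM in spermatocytes and 3.08, 3.49 and 3.25 in round spermatids (log2 fold change -2.50 ± 0.17 (SE), adjusted p = 8.85e-06). *Sycp3*, the main lateral element protein, had 463 and 371 CPM in spermatocytes and 92.1, 109 and 120.0 in round spermatids (log2 fold change -1.94 ± 0.15 (SE), adjusted p = 1.92e-05). Both were higher in each spermatocyte library than in any round spermatid library. How often libraries separate in this way over all genes is not given here, so such a separation describes the gene and is no test. *Sycp2* (log2 fold change -1.74 ± 0.16), *Hormad1* (-1.52 ± 0.15) and *Hormad2* (-0.59 ± 0.19, adjusted p = 0.0258) were lower too. *Hormad2* lost its call with all groups in 1 fit (0.148) and without WT round spermatid replicate 2 (0.0585) or WT spermatocyte replicate 1 (0.193) or 2 (0.0717).

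A pair of central element genes ran the other way. *Syce2* had 12.4 and 12.3 CPM in WT spermatocytes and 29, 35.5 and 34.4 in round spermatids (log2 fold change 1.44 ± 0.14 (SE), adjusted p = 7.85e-05), and *Syce3* had 8.46 and 8.64 against 16.5, 18.7 and 16.5 CPM (log2 fold change 1.04 ± 0.14 (SE), adjusted p = 0.000406). For both, every round spermatid library was above both spermatocyte libraries. The 95% interval of the log2 fold change, from the fit's t distribution, was -0.71 to 0.34 for *Sycp1*, which encodes the transverse filament, and -0.12 to 0.29 for *Syce1*, and the libraries of the 2 cell types overlapped for these genes. In the other genotypes the members lower in round spermatids were 7 in CTCF HET (background 23.9%), 7 in BORIS KO (41.6%) and 4 in CM (11.9%). Those higher were 1 (*Syce2*, 29.7%), 2 (*Syce2* and *Syce3*, 41.7%) and 1 (*Syce2*, 16%). *Syce2* lost its call in CTCF HET without any 1 of the 3 round spermatid libraries (0.0588 to 0.0641), and in CM without any 1 library other than round spermatid replicate 3 (0.0555 to 0.144). *Sycp1* lost its call in CM without any 1 library other than spermatocyte replicate 1 (0.0509 to 0.148). *Tex12* was 19.8-fold lower in round spermatids in CTCF HET (adjusted p = 4.15e-05) and 13.2-fold lower in BORIS KO (adjusted p = 6.97e-08).

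Loss of BORIS was accompanied by lower levels of most of the 9 genes in both purified cell types. In BORIS KO round spermatids 7 of 9 fell, where 29% of the 15513 genes tested were lower, and none rose. The median log2 fold change of the 9 was -1.25, against -0.01 over all genes tested. The 3 knockout libraries lay below all 3 WT libraries for each of these 7 genes, and the share of all genes with such a separation is not given here. In a bulk preparation, fewer cells of a type and less RNA per cell cannot be told apart.

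Among the axis genes, *Hormad1*, whose product is needed for synapsis surveillance, had 73.1, 78.7 and 96.1 CPM in WT and 20.3, 22.2 and 19.7 CPM in BORIS KO round spermatids (log2 fold change -1.96 ± 0.13 (SE), adjusted p = 9.09e-06). *Sycp2* had 661, 854 and 874 against 218, 218 and 225 CPM (log2 fold change -1.82 ± 0.12 (SE), adjusted p = 6.9e-06), and *Sycp3*, its partner in the lateral element, had 92.1, 109 and 120.0 against 43.3, 44.7 and 43.7 CPM (log2 fold change -1.25 ± 0.12 (SE), adjusted p = 4.36e-05). The knockout libraries of these genes differed little from each other, and the fitted knockout levels were 25.8%, 28.4% and 42.1% of WT. *Hormad2* had 4.54, 5.59 and 6.01 CPM in WT and 2.44, 2.39 and 2.52 in BORIS KO (log2 fold change -1.09 ± 0.18 (SE), adjusted p = 0.000815). *Sycp2* is the gene with CTCF and BORIS summits just upstream of its start, printed above, whereas no CTCF or BORIS peak was listed at the other genes that fell.

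*Sycp1*, the transverse filament gene, had 287, 431 and 467 CPM in WT and 131, 121 and 133 in BORIS KO round spermatids (log2 fold change -1.59 ± 0.17 (SE), adjusted p = 7.95e-05). *Tex12*, a central element gene that partners *Syce2*, had 3.08, 3.49 and 3.25 against 0.964, 1.21 and 1.56 CPM (log2 fold change -1.36 ± 0.23 (SE), adjusted p = 0.000865). *Syce1* fell least, from 799, 871 and 874 to 593, 581 and 575 CPM, 1.42-fold (adjusted p = 0.000602). The remaining central element genes did not pass the test. *Syce2* had a log2 fold change of -0.10 ± 0.14 (adjusted p = 0.542), with overlapping libraries, and *Syce3* of 0.23 ± 0.11 (adjusted p = 0.118), with 19.5, 19.7 and 19.8 CPM in the knockout against 16.5, 18.7 and 16.5 in WT. With all 4 genotypes in 1 fit *Syce1*, *Tex12* and *Hormad2* no longer passed (adjusted p = 0.0585, 0.0972 and 0.0824), which left 4 genes.

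In BORIS KO spermatocytes 6 of 9 genes fell and 1 rose, against 28.1% lower and 29.1% higher among the 14338 genes tested. *Sycp2* had 3047 and 2380.4 CPM in WT and 1217, 1237 and 1256 in BORIS KO (log2 fold change -1.14 ± 0.09 (SE), adjusted p = 4.03e-06), *Hormad1* had 269 and 213 against 136, 140.4 and 137 (log2 fold change -0.82 ± 0.09 (SE), adjusted p = 2.3e-05), and *Sycp3* had 463 and 371 against 269.8, 273 and 259 (log2 fold change -0.65 ± 0.09 (SE), adjusted p = 8.24e-05). No knockout library reached a WT library. *Hormad2* (-0.59 ± 0.11), *Sycp1* (-0.50 ± 0.12) and *Syce1* (-0.24 ± 0.06) fell less on the log2 scale. *Syce3* rose from 8.46 and 8.64 to 13, 12.6 and 10.6 CPM (log2 fold change 0.49 ± 0.10 (SE), adjusted p = 0.00133). *Tex12*, at 20.8 and 16.8 CPM in WT against 17.7, 17.1 and 16, did not pass the test, with a 95% interval of -0.37 to 0.05, and neither did *Syce2* at -0.15 to 0.20. With all 4 genotypes in 1 fit, *Sycp2*, *Sycp3* and *Hormad1* were the 3 that stayed lower and *Syce3* was not called.

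Most markers listed for early meiotic cells fell with these genes, although 3 of the 6 were higher in WT round spermatids than in WT spermatocytes. Of 6 markers of preleptotene to zygotene spermatocytes, 4 fell in BORIS KO round spermatids (*Stra8*, *Prdm9*, *Spo11* and *Gm1564*, also known as *Meioc*) and 5 in BORIS KO spermatocytes. Their summed level was 107 to 113 CPM against 269 to 308 in WT round spermatids, and 565 to 612 against 942 to 1104 in WT spermatocytes. None of the 6 was at 0 in these libraries, although *Dmc1*, a recombinase of early prophase, was only at 0.197 and 0.119 CPM in WT spermatocytes. Of 6 pachytene and diplotene markers, 1 rose and 2 fell in BORIS KO round spermatids, with sums of 6039.5 to 6307 CPM against 6915 to 7171 in WT, and 2 fell in spermatocytes. Of 9 round spermatid markers, 2 rose and 4 fell in BORIS KO round spermatids (671 to 1285 CPM against 1068 to 1265). The part of these shifts in the values of the 9 genes was not tested.

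**Figure D2:**
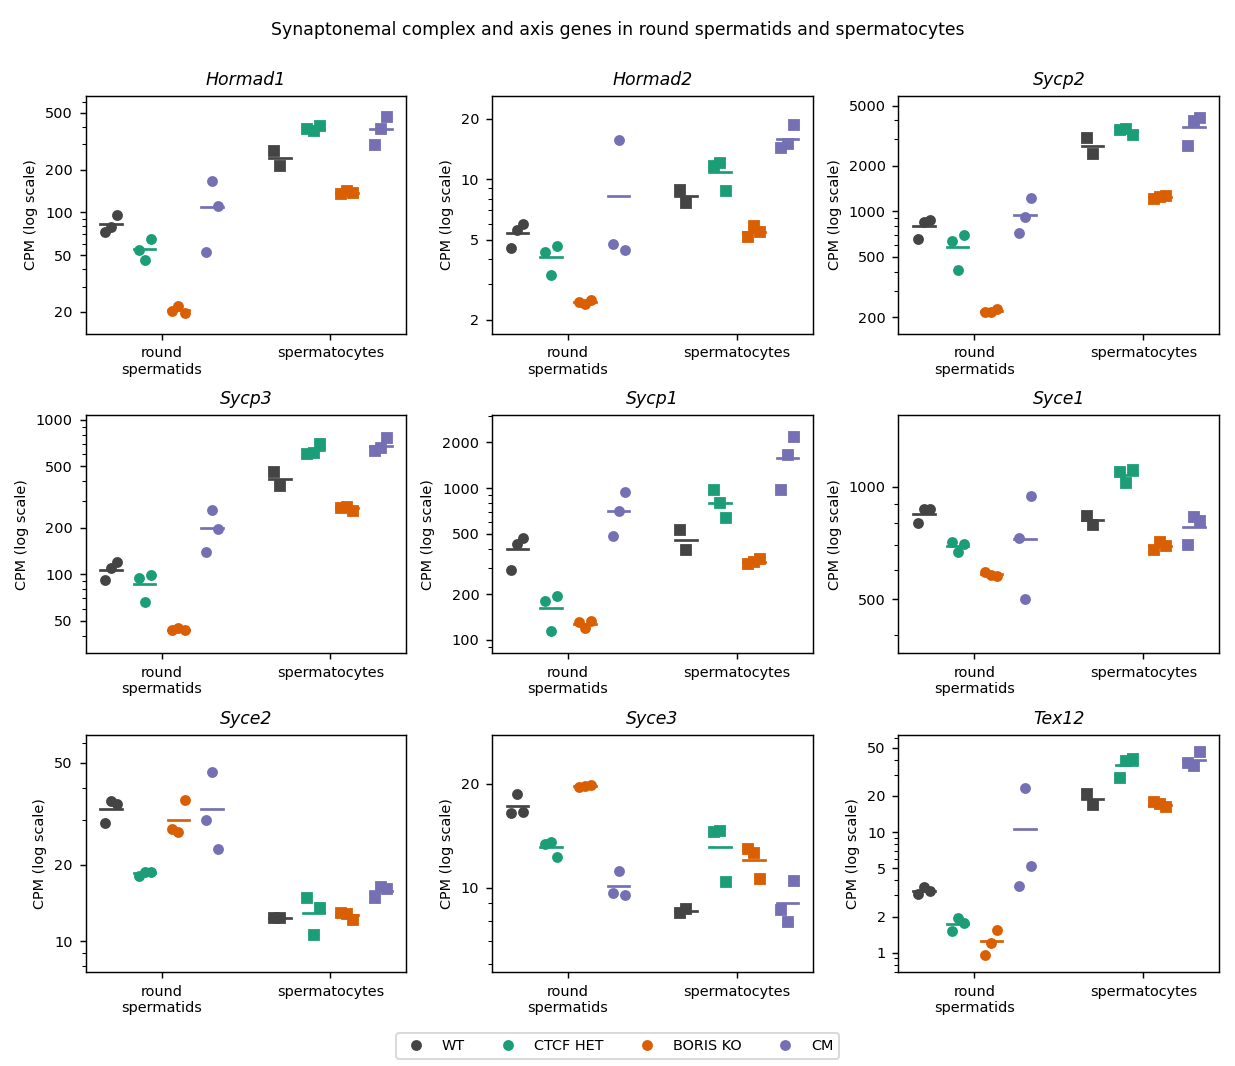
Level of each gene in every round spermatid (circles) and spermatocyte (squares) library. The y axis is CPM on a log scale, colours are genotypes and short lines are group means of CPM. For Sycp2, Sycp3 and Hormad1 the 3 BORIS KO libraries lie below all WT libraries in both cell types, and Tex12 in CM round spermatids reaches 23.1 CPM in 1 library.

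In CTCF HET the 2 cell types went opposite ways. In round spermatids 4 of 9 genes fell and none rose, against 12.8% of 15238 genes lower, and all 9 log2 fold changes were below 0. *Sycp1* had 287, 431 and 467 CPM in WT and 180.2, 115 and 194 in CTCF HET (log2 fold change -1.26 ± 0.23 (SE), adjusted p = 0.00782), a 2.40-fold difference that passed in every alternative fit at the same threshold. *Syce2* had 29, 35.5 and 34.4 against 18, 18.7 and 18.6 CPM (log2 fold change -0.82 ± 0.12 (SE), adjusted p = 0.00449). Both genes, the transverse filament and a central element component, were lower in each CTCF HET library than in any WT library.

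*Tex12* had 3.08, 3.49 and 3.25 CPM in WT and 1.52, 1.95 and 1.77 in CTCF HET round spermatids (log2 fold change -0.88 ± 0.20 (SE), adjusted p = 0.0168), and *Hormad1* had 73.1, 78.7 and 96.1 against 54.8, 46 and 65.2 (log2 fold change -0.56 ± 0.16 (SE), adjusted p = 0.0343). The libraries did not overlap for either gene, but *Tex12* lost its call without WT replicate 2 or 3 or CTCF HET replicate 1 (adjusted p of 0.0619 to 0.0867), and *Hormad1* without WT replicate 2 or 3 or CTCF HET replicate 1 or 2 (0.0915 to 0.139). With all 4 genotypes in 1 fit *Sycp1* alone stayed lower. The 5 genes that did not pass had log2 fold changes between -0.43 and -0.27, with adjusted p from 0.052 for *Syce3* to 0.215 for *Sycp3*. The early meiotic markers held 0 genes called by edgeR in this comparison, with sums of 228 to 313 CPM against 269 to 308 in WT, while 6 of 9 round spermatid markers fell (744 to 805 CPM against 1068 to 1265). The part of the latter in the members' values was not tested.

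In spermatocytes labelled CTCF HET, whose mean of *Ctcf* was not lower than that of WT, 5 of 9 genes rose and none fell, against 6.77% of 13648 genes higher, and all 9 log2 fold changes were above 0. *Hormad1* had 269 and 213 CPM in WT and 384, 374 and 401 in CTCF HET (log2 fold change 0.68 ± 0.11 (SE), adjusted p = 0.0103), *Sycp3* had 463 and 371 against 606, 609 and 696 (log2 fold change 0.61 ± 0.11 (SE), adjusted p = 0.0146), and *Tex12* had 20.8 and 16.8 against 28.2, 38.8 and 40.8 (log2 fold change 0.93 ± 0.21 (SE), adjusted p = 0.0247). The CTCF HET libraries were above both WT libraries for each of them. *Syce1* rose from 838 and 793 to 1099, 1027 and 1114 CPM (log2 fold change 0.41 ± 0.08 (SE), adjusted p = 0.0168) and *Sycp1* from 528 and 389 to 975, 799 and 637 (log2 fold change 0.82 ± 0.20 (SE), adjusted p = 0.0368). None of the 5 calls withstood every omission of a library: without CTCF HET replicate 2 none of the 9 was called, and without WT replicate 2 or CTCF HET replicate 1 there were 2. These libraries also listed fewer genes, as given above, and 3 of the 8 round spermatid markers tested rose in them (51.7 to 81.6 CPM against 31.4 to 31.7 in WT). Of the 6 early meiotic markers 0 were called, 5 had a log2 fold change above 0 and 1 below. Their sums were 1205 to 1303 CPM against 942 to 1104 in WT. Of the 6 pachytene and diplotene markers 1 fell (9337 to 11060 CPM against 10971.5 to 11783). The part of these markers in the members' values was not tested.

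The difference between the 2 cell types was tested itself, as the effect in round spermatids minus the effect in spermatocytes. For CTCF HET against WT it was below 0 at an adjusted p under 0.05 for 7 of 9 genes, where 10.6% of 16152 genes were below 0 and 23% above, and its median was -0.81 for the 9 and 0.33 for all genes. With RLE scaling or DESeq2 the median of all genes was near 0 (-0.03 and -0.06) and all 9 genes were called. The share of all genes called under those settings is not given here. The largest values were -1.97 ± 0.38 for *Sycp1* (adjusted p = 0.00399) and -1.72 ± 0.27 for *Tex12* (adjusted p = 0.002). For BORIS KO against WT the difference was called below 0 for 6 of 9 genes (background 10.4% below 0 and 3% above, of 16519 genes), with *Tex12* at -1.27 ± 0.24 (adjusted p = 0.00746) and *Hormad1* at -1.21 ± 0.17 (adjusted p = 0.00333). None of these 6 was called when WT spermatocyte replicate 2 was left out. Both tests were added after the single comparisons had been seen, and both use the same WT libraries.

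**Figure D3:**
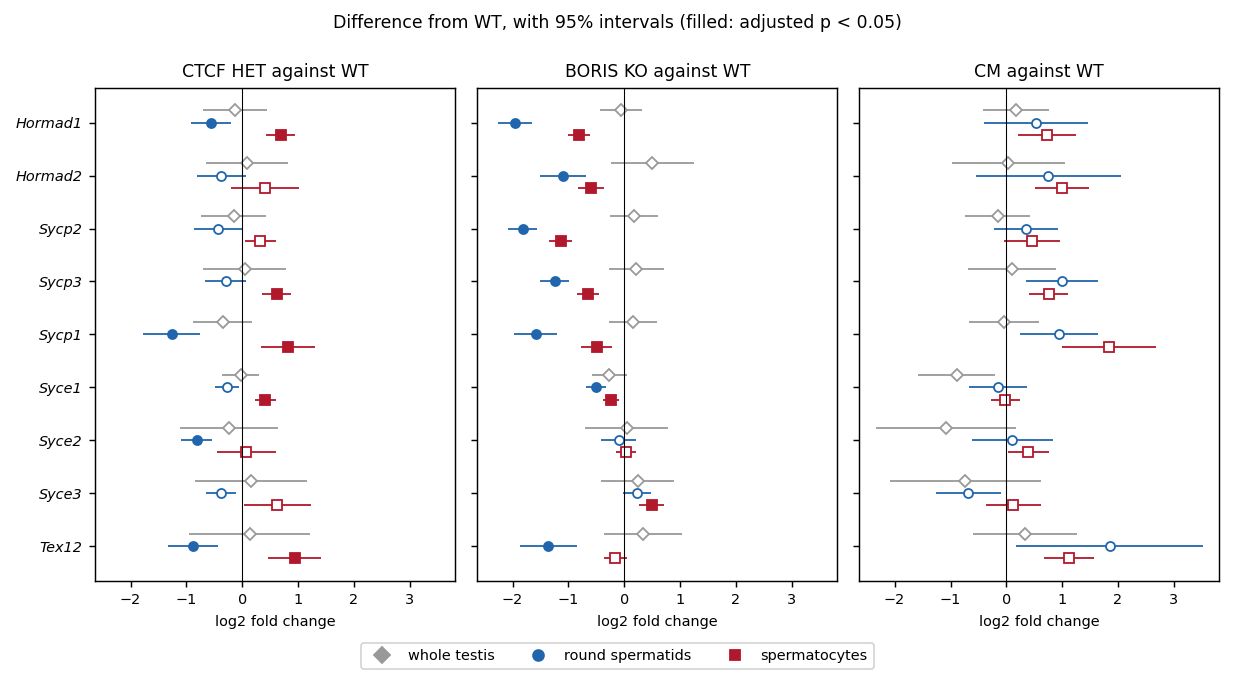
Log2 fold change of each gene against WT in whole testis (diamonds), round spermatids (circles) and spermatocytes (squares), with 95% intervals and 1 panel per genotype. Filled symbols have an adjusted p under 0.05. In CTCF HET the filled circles lie below 0 and the filled squares above it, in BORIS KO all filled symbols but Syce3 in spermatocytes lie below 0, and CM has none.

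In the purified cells labelled CM, where *Ctcf* did not show the loss, no member passed edgeR's test. Several were higher than WT in every library, but the share of all genes with such a separation is not given here. In CM round spermatids 0 of 9 were called (4 at an unadjusted p under 0.05, and 3 higher by DESeq2), in a comparison where edgeR called 0.00654% of all genes. An unadjusted p under 0.05 by edgeR was reached by 3136 of all 15298 genes. The share of all genes called by DESeq2 is not given here. *Sycp3* had 139, 262 and 197 CPM against 92.1, 109 and 120.0 in WT (log2 fold change 1.00 ± 0.28 (SE), adjusted p = 0.169), and *Sycp1* had 482, 706 and 947 against 287, 431 and 467 (log2 fold change 0.94 ± 0.30 (SE), adjusted p = 0.179). *Tex12* had 3.58, 23.1 and 5.25 CPM against 3.08, 3.49 and 3.25, a mean that rests on the second library. The 3 CM libraries exceeded all WT libraries for these genes, and were below them for *Syce3*, at 9.62, 11.1 and 9.54 against 16.5, 18.7 and 16.5 CPM (log2 fold change -0.68 ± 0.25 (SE), adjusted p = 0.198). The third CM library alone had *Sycp1* at 947 CPM and *Sycp3* at 197 CPM, above all WT libraries, and *Syce3* at 9.54 CPM, below them. A single library has no spread of its own, so no call is given for it. The early meiotic markers summed to 282 to 836 CPM in CM round spermatids, the highest value being that of the second library, against 269 to 308 in WT, and the round spermatid markers to 459.7 to 631 against 1068 to 1265. Their part in the members' values was not tested.

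In CM spermatocytes 0 of 9 were called by edgeR (6 at an unadjusted p under 0.05, and 5 higher by DESeq2), with 0.604% of all genes called by edgeR. An unadjusted p under 0.05 by edgeR was reached by 4391 of all 14747 genes. The share of all genes called by DESeq2 is not given here. *Sycp1* had 969, 1642 and 2159 CPM against 528 and 389 in WT (log2 fold change 1.84 ± 0.35 (SE), adjusted p = 0.0593), *Tex12* had 37.1, 35.6 and 46.1 against 20.8 and 16.8 (log2 fold change 1.12 ± 0.18 (SE), adjusted p = 0.0562) and *Hormad2* had 14.3, 14.9 and 18.5 against 8.85 and 7.62 (log2 fold change 1.00 ± 0.20 (SE), adjusted p = 0.064). All CM libraries were above both WT libraries for these genes, as they were for *Sycp3*, *Hormad1* and *Syce2*. The share of all genes so separated is not given here. Without CM replicate 1, whose *Ctcf* value stood apart, 7 of 9 were called higher, with *Sycp1* at an adjusted p of 0.00286, and over all alternatives the adjusted p of *Sycp1* ran from 8.4e-07 to 0.476. The share of all genes called without that library is not given here, and the 0.604% belongs to the full fit. *Syce1* had a 95% interval of -0.28 to 0.24. All 6 early meiotic markers had a log2 fold change above 0, with a median of 0.78 and sums of 1186 to 1422 CPM against 942 to 1104 in WT, and so had all 8 round spermatid markers tested, with a median of 1.21 and sums of 28.3 to 106 against 31.4 to 31.7. None of these markers was called by edgeR, and their part in the members' values was not tested. The difference of the CM effect between the cell types passed for 0 of 9 genes (1 at an unadjusted p under 0.05, 1 lower by DESeq2), against 3.51% of all genes by edgeR. An unadjusted p under 0.05 was reached there by 2602 of all 17077 genes.

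In whole testis no member was called in the fit without the replicate number, whereas with it as a block *Syce1* and *Syce2* were lower in CM. The block also raised the calls over all genes, as given in the part on processing, so these calls alone do not set the members apart. In CTCF HET 0 of 9 genes passed edgeR's test (0 at an unadjusted p under 0.05 and 0 by DESeq2), against 0.00621% of all genes, and the log2 fold changes lay between -0.35 and 0.16. In BORIS KO the numbers were 0, 0 and 0, against 0.0551% of all genes, with log2 fold changes between -0.27 and 0.50. The 95% intervals of *Sycp2* (-0.26 to 0.60) and *Hormad1* (-0.44 to 0.31) in BORIS KO whole testis did not reach the falls measured for these genes in the purified cells, which lie in another table. *Syce1* was the one gene whose BORIS KO libraries, 412, 365 and 331 CPM, were all below WT, 469.6, 437 and 418 (adjusted p = 0.361).

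In CM whole testis 0 of 9 were called by edgeR (1 at an unadjusted p under 0.05 and 1 lower by DESeq2), in a comparison that called 25.2% of all genes. An unadjusted p under 0.05 by edgeR was reached by 6789 of all 16378 genes. The lowest log2 fold changes were those of 3 central element genes. *Syce1* had 159, 329 and 237 CPM in CM against 469.6, 437 and 418 in WT (log2 fold change -0.89 ± 0.30 (SE), adjusted p = 0.0576), *Syce2* had 27, 144 and 136 against 160.2, 217 and 262 (log2 fold change -1.09 ± 0.55 (SE), adjusted p = 0.167) and *Syce3* had 5.59, 36.3 and 38.4 against 34.7, 43.4 and 52.6 (log2 fold change -0.73 ± 0.60 (SE), adjusted p = 0.373). All CM libraries were below WT for *Syce1* and *Syce2*, while CM replicates 2 and 3 of *Syce3* reached the WT range and replicate 1 was far below it. Same-numbered libraries of different genotypes deviated together in whole testis, and with the replicate number as a block *Syce1* and *Syce2* were called lower (adjusted p = 0.0123 and 0.0101). More of all genes were called with the block as well, as given in the part on processing. Without the block *Syce1* also passed with RLE scaling (0.0487), DESeq2 (0.02) and all genotypes in 1 fit (0.0127), and without CM replicate 2 (0.0221).

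The other 6 genes in CM whole testis had log2 fold changes between -0.16 and 0.33 with overlapping libraries. *Tex12*, which shares the central element with *Syce2*, had 2.16, 4.83 and 3.89 CPM in CM and 2.18, 2.59 and 3.70 in WT. Markers of other cells moved in the same libraries: 5 of 7 Leydig cell markers rose (1806 to 3545 CPM against 349.9 to 618), 4 of 8 Sertoli cell markers rose (657 to 1398 against 264 to 435), and 4 of 9 round spermatid markers fell (3907 to 11588 against 12558 to 20200.1). Of 6 macrophage markers 5 rose, although their summed level was not higher (329.8 to 450.3 CPM against 449.6 to 612). Of the 9 spermatogonial markers tested 3 rose (136 to 449 against 64.9 to 87.3), while 4 had a log2 fold change below 0. All 6 pachytene and diplotene markers had a log2 fold change below 0, with a median of -0.55, and 1 of them fell (2164 to 5766 CPM against 5425 to 7808). Of the 6 early meiotic markers 1 fell (93.2 to 164 against 156 to 194), whereas 4 had a log2 fold change above 0. The median of the 6 was 0.37. Their part in the members' values was not tested. Between CM and BORIS KO 0 of 9 passed by edgeR (0 at an unadjusted p under 0.05, 0 by DESeq2) against 0.006% of all genes, and 2 were lower with the replicate block. The departure of CM from the sum of the single-mutant effects passed for 0 of 9 (0 at an unadjusted p under 0.05, 0 by DESeq2) and 0% of all genes.

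**Figure D4:**
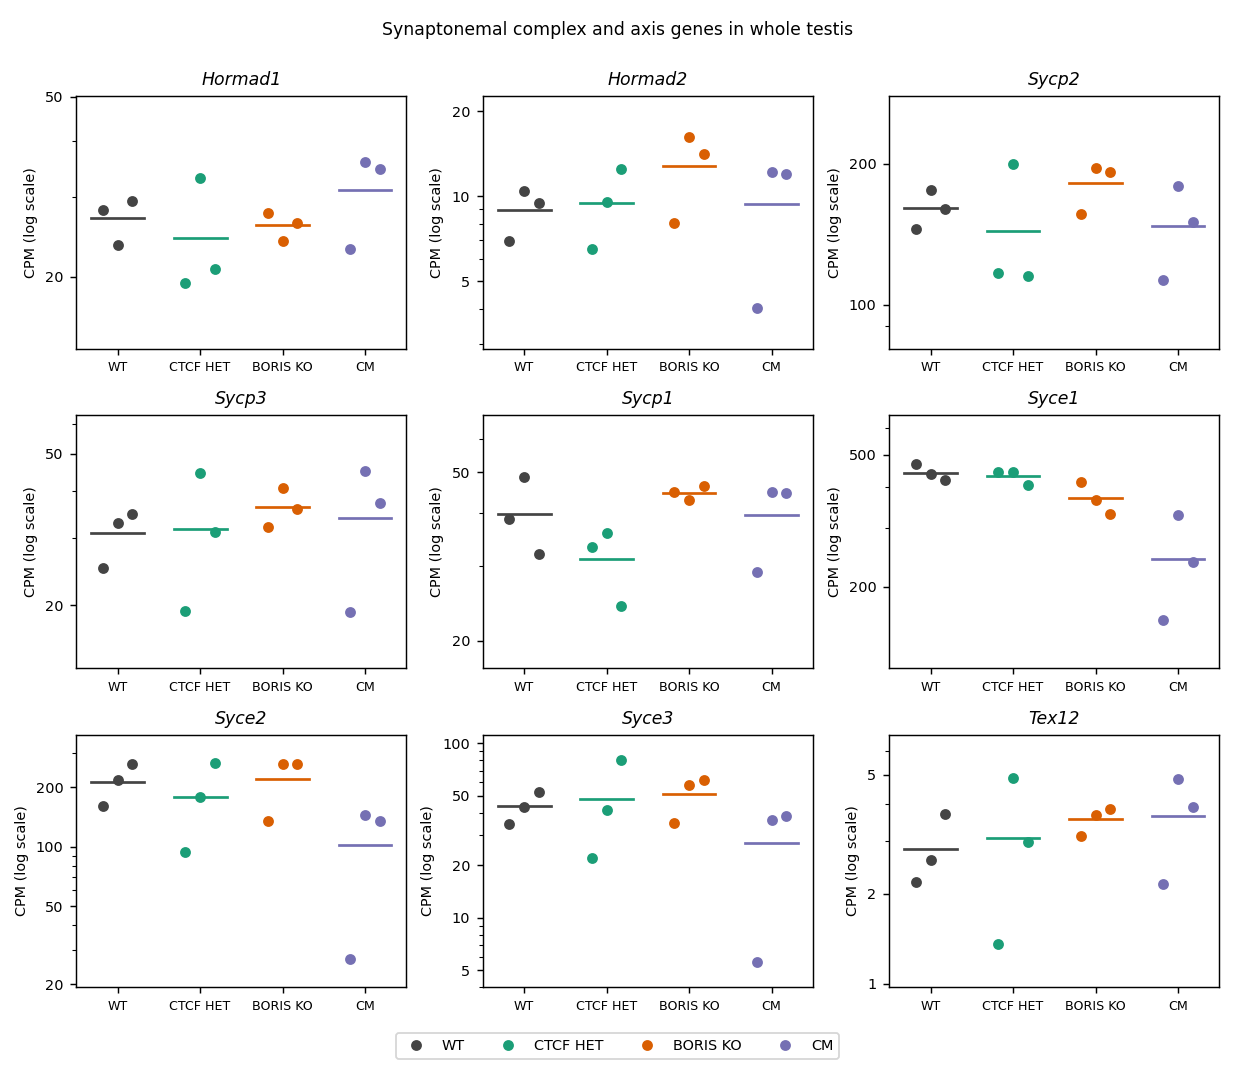
Level of each gene in every whole testis library, with 1 point per library and short lines at group means of CPM. The y axis is CPM on a log scale and differs between panels. The libraries of the genotypes overlap for most genes, whereas the 3 CM libraries lie below all WT libraries for Syce1 and Syce2.

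Partners of the axis and of synapsis were read from a list of 17 genes (cohesins, axis proteins, and factors of recombination and crossover formation), of which 16 were in the tables. In BORIS KO round spermatids 8 fell and 2 rose, against 29% and 26.8% of all genes. The meiotic cohesin subunit *Smc1b* had 1910.4, 1907 and 1930.2 CPM in WT and 428, 439.9 and 508 in BORIS KO (log2 fold change -2.03 ± 0.08 (SE), adjusted p = 2.8e-06), and the general cohesin subunit *Smc3* had 401, 436 and 441 against 123, 119 and 139 (-1.71 ± 0.09, adjusted p = 3.61e-06). The list also held *4930447C04Rik*, which encodes the central element protein SIX6OS1 (-2.38 ± 0.22, adjusted p = 4.41e-05), and *Hfm1*, a helicase of crossover formation (-1.33 ± 0.14, adjusted p = 7.44e-05). In BORIS KO spermatocytes 6 fell and 3 rose, against 28.1% and 29.1% of all genes, with *4930447C04Rik* at -1.20 ± 0.09 and *Smc1b* at -1.17 ± 0.10 among the lower and *Fkbp6*, a gene required for synapsis, at 0.67 ± 0.08 among the higher.

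In CTCF HET round spermatids 6 partners fell and 1 rose, against 12.8% and 9.51% of all genes, with *Msh4*, a factor of meiotic recombination, at a log2 fold change of -1.13 ± 0.21 (adjusted p = 0.00942), *Smc3* at -0.60 ± 0.13 (adjusted p = 0.0148) and the meiotic cohesin *Rec8* at -0.54 ± 0.12 (adjusted p = 0.0168). In CTCF HET spermatocytes 3 rose and 2 fell, against 6.77% and 8.76% of all genes. *Smc3* had 38 and 32.1 CPM in WT and 56.7, 54.8 and 59.6 in CTCF HET (0.71 ± 0.13, adjusted p = 0.0128), and *Smc1b* had 900.5 and 736 against 1322, 1272 and 1166 (0.62 ± 0.12, adjusted p = 0.0146). *Smc3* therefore fell in one cell type and rose in the other, as *Sycp1*, *Tex12* and *Hormad1* did. In CM round spermatids and in CM spermatocytes edgeR called 0 of the partners, and in CM whole testis *Rec8* was the 1 that fell (-0.92 ± 0.26, adjusted p = 0.0353). Between the WT cell types 7 were higher and 7 lower in round spermatids, where 35.8% and 34.2% of all genes were, and *Rec8* was at 1.08 and 0.979 CPM in WT spermatocytes against 118, 97.4 and 96.4 in WT round spermatids and 117, 124 and 112 in WT whole testis.

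Across the 23 round spermatid and spermatocyte libraries, the mean standardised log2 CPM of the 9 genes was followed most closely, among 17314 genes, by the non-members *5730455O13Rik* (Pearson r = 0.98), *Ccdc90b* (0.97), *Cul2* (0.97), *Ccnh* (0.97) and *4921524J17Rik* (0.96). Members themselves split on this measure: *Hormad1*, *Sycp1*, *Sycp2*, *Hormad2*, *Sycp3* and *Tex12* had an r of 0.90 to 0.95, *Syce1* of 0.68, and *Syce2* and *Syce3* of -0.41 and -0.55. In the 12 whole testis libraries the non-members among the closest were *Fmr1nb* (0.97), *Tdrd12* (0.96), *Tada1* (0.96) and *Cbwd1* (0.96), and all 9 members had an r above 0, from 0.51 for *Syce1* to 0.94 for *Sycp3*. The libraries share cell type, genotype and depth, so these values describe the libraries and carry no test. *Sycp3* lies wholly within *Chpt1* on the opposite strand and *Syce2* overlaps *Gcdh* by 1829 bp on the opposite strand. The use of strand in counting is not given in the sources used here, so reads of these gene pairs may have been shared.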

How the data were processed

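RNA-seq libraries of whole testis (Ion Proton, rRNA-depleted, TopHat2 and Bowtie2) and of round spermatids and spermatocytes (HiSeq2000, poly(A), STAR) were deposited as raw counts per gene in separate tables on mm9. The tool that made the counts, its annotation and its use of strand are not given in the sources used here, and the submitters' processing notes also name Cufflinks 2.0.0 and DESeq2. CTCF and BORIS peaks were deposited with a pileup height (signal) and Pol2 and H3K4me3 peaks with a score, both from MACS, 1 list per antibody and genotype.

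Counts were tested with edgeR 4.0.16 in R 4.3.3 (filterByExpr with a minimum count of 10 and a minimum total of 15, TMM, robust quasi-likelihood F-test), on the libraries of the groups compared, with p-values adjusted over all genes tested and called under 0.05. DESeq2 1.42.0, RLE scaling, no filter, all genotypes of a preparation in 1 fit, a replicate block, the study's thresholds (adjusted p of 0.001 and a fold change of 2) and omission of each library were tried. Scripts were tested on simulated data. RPKM used exon lengths of the annotation on mm9. Peaks were assigned to genes with 2 kb added on each side and, separately, within 1 kb of a start.

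Same-numbered libraries deviated together in whole testis (18 of 18 pairs with r above 0.1, from 0.121 to 0.631), so the replicate numbers pair these libraries, although the labels do not say what a number marks. No 2 libraries of a group agreed within sampling noise. The labels do not tie preparations to separate litters or days, so p-values measure the spread between preparations of pooled mice. Depth was 10437683 to 98545423 counts per library. All 9 members, the 2 targeted genes, the 4 partners with the smallest p in a comparison and the 5 non-members closest in pattern could be named, of which 1 in whole testis is not reported here. Members and lists were chosen with earlier results of these data known.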

Additional observations from a re-analysis of the deposited data

Results flagged for a closer look

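The effect of CTCF HET against WT differed between round spermatids and spermatocytes for 7 of the 9 genes in a test of the difference itself. The log2 difference of the effects, round spermatids minus spermatocytes, was -1.97 ± 0.38 (SE) for *Sycp1*, -1.72 ± 0.27 for *Tex12*, -1.14 ± 0.23 for *Hormad1*, -0.91 ± 0.24 for *Syce3*, -0.81 ± 0.24 for *Sycp3*, -0.79 ± 0.22 for *Syce2* and -0.58 ± 0.11 for *Syce1*. In edgeR's test the adjusted p-values ran from 0.002 for *Tex12* to 0.0265 for *Sycp3*. *Sycp1*, *Syce1*, *Tex12* and *Hormad1* passed in every alternative fit at this threshold. For these 4 genes the CTCF HET libraries lay below all WT libraries in round spermatids and above both in spermatocytes. The mean of *Ctcf* itself was not lower than WT in the spermatocyte libraries labelled CTCF HET, as given above, and the part of this in the difference was not tested.

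The effect of BORIS KO against WT also differed between the cell types, for 6 of the 9 genes. The log2 difference of the effects was -1.27 ± 0.24 (SE) for *Tex12*, -1.21 ± 0.17 for *Hormad1*, -1.16 ± 0.24 for *Sycp1*, -0.75 ± 0.17 for *Sycp2*, -0.67 ± 0.16 for *Sycp3* and -0.33 ± 0.09 for *Syce1*, with adjusted p-values from 0.00333 for *Hormad1* to 0.032 for *Syce1* in edgeR's test. For *Tex12* the fall in round spermatids (-1.36) stood against -0.16 in spermatocytes, and for the other 5 genes the levels fell in both. All 6 lost their call without WT spermatocyte replicate 2, and 3 were called without WT round spermatid replicate 2 or 3. Both tests share the 5 WT libraries and were chosen after the single comparisons had been seen.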

How the results depend on the processing

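At an adjusted p of 0.001 with a fold change above 2, no member was called lower in CTCF HET round spermatids (0), higher in CTCF HET spermatocytes (0), or lower in either difference of effects (0 and 0). At the same thresholds BORIS KO spermatocytes kept a count of 1 lower and 0 higher, round spermatids against spermatocytes gave 0 higher in CTCF HET, 1 higher in BORIS KO, and 0 higher and 0 lower in CM. With all genotypes of a preparation in 1 fit, 1 member was lower in CM whole testis, 1 was lower in CTCF HET round spermatids, 4 were lower in BORIS KO round spermatids, 3 were higher and 1 lower in CM round spermatids, 0 were higher and 3 lower in BORIS KO spermatocytes, and 5 were higher in CM spermatocytes. DESeq2 called 1 lower in CM whole testis, 3 higher in CM round spermatids, 5 higher in CM spermatocytes and 1 lower for the difference of the CM effect between the cell types. RLE scaling called 1 lower in CM whole testis, and without the low-count filter 1 was higher in BORIS KO round spermatids and 3 were higher in CTCF HET spermatocytes. With the upper 50% of peaks, 1 member had a BORIS peak in either window, against 12.9% of all genes within 2 kb of the gene and 8.2% within 1 kb of a start. The causes of these shifts were not tested. Except for whole testis with the replicate block or DESeq2, given below, the share of all genes called under each alternative is not given. The omission of each library moved the count of members lower in CTCF HET round spermatids between 2 and 7, in BORIS KO round spermatids between 7 and 7, in BORIS KO spermatocytes between 5 and 7, and in CM whole testis between 0 and 1. It moved the count higher in CTCF HET spermatocytes between 0 and 5, in CM spermatocytes between 0 and 7 and in CM round spermatids between 0 and 1. Between the cell types the count lower ran from 4 to 5 in WT and from 2 to 5 in CM, the count higher from 0 to 1 in CTCF HET and from 0 to 1 in CM, and the differences of the effects from 5 to 7 for CTCF HET and from 0 to 7 for BORIS KO.

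With a replicate block, whole testis gave 2 members lower in CM against WT and 2 in CM against BORIS KO, and the calls over all genes went from 1 to 42 in CTCF HET, from 9 to 1077 in BORIS KO, from 4135 to 7043 in CM and from 1 to 1225 in CM against BORIS KO, where DESeq2 without the block called 3, 386, 5417 and 1201. The genes tested numbered 16378 in CM against WT and 16655 in CM against BORIS KO. In the purified cells same-numbered libraries did not deviate together (4 of 18 pairs of round spermatids and 1 of 15 of spermatocytes with r above 0.1), so they share only a number, and the block gave 0 members higher in round spermatids against spermatocytes in CTCF HET and 0 in CM. Under the block, log2 fold changes near 0 changed sign for *Sycp3* (-0.0191), *Syce3* (-0.0252) and *Tex12* (-3.21e-05) in CTCF HET whole testis, *Hormad2* (-0.11) in CM whole testis and *Syce3* (-0.00883) in CM spermatocytes. No other count of members moved by over 1.5 times with the block.

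Other changes of sign were in values that had not passed the test. They were *Syce2* in BORIS KO whole testis (-0.00424 with RLE, -0.00429 with DESeq2, -0.0137 without the filter), *Hormad2* in CM whole testis (-0.00809 with RLE, -0.00687 with DESeq2), *Syce2* in BORIS KO round spermatids (0.0248 without the filter) and *Syce1* between the WT cell types (-0.0124 with all genotypes and both cell types in 1 fit). The third CM round spermatid library alone, an alternative chosen after seeing the data, gave log2 fold changes against WT of 0.18 for *Syce1*, -0.50 for *Syce2* and -0.25 for *Hormad2*. Against spermatocytes it gave 0.17 for *Syce1* and -0.0304 for *Syce3*. With 1 library left out, the log2 values crossed 0 for *Sycp3* (-0.29 to 0.32), *Syce3* (-0.48 to 0.52), *Tex12* (-0.41 to 0.54), *Hormad2* (-0.19 to 0.33), *Syce2* (-0.68 to 0.0814) and *Hormad1* (-0.42 to 0.0325) in CTCF HET whole testis, *Syce2* (-0.14 to 0.32) and *Hormad1* (-0.13 to 0.0375) in BORIS KO whole testis, *Sycp3* (-0.13 to 0.43), *Hormad2* (-0.17 to 0.45), *Sycp1* (-0.16 to 0.19) and *Sycp2* (-0.29 to 0.0519) in CM whole testis, *Syce1* (-0.37 to 0.00872), *Syce2* (-0.30 to 0.32) and *Hormad2* (-0.20 to 1.07) in CM round spermatids, *Syce2* (-0.0343 to 0.23) in CTCF HET spermatocytes. They also crossed 0 for *Tex12* (-0.31 to 0.00589) in BORIS KO spermatocytes, *Syce1* (-0.075 to 0.0737) in CM spermatocytes, *Sycp1* (-0.40 to 0.0464) in round spermatids against spermatocytes in WT, *Syce3* (-0.0972 to 0.14) in round spermatids against spermatocytes in CTCF HET, *Syce1* (-0.36 to 0.0451) in round spermatids against spermatocytes in CM, *Syce2* (-0.35 to 0.0257) in the difference of the BORIS KO effects.

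Of the member values, 753 stayed on their side of the threshold with a library left out, 60 lost a call, 18 gained one and 33 changed sign, and under the other alternatives the numbers were 602, 22, 40 and 17. Comparisons of spermatocytes with WT rest on 2 WT libraries.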

Other observations

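Partners of the axis were also read between the cell types and for the difference of the effects. In WT, *Rec8* was 6.68 ± 0.18 (log2 fold change with SE) in round spermatids against spermatocytes, the crossover factor *Tex11* 5.85 ± 0.24 and *Smc3* 3.63 ± 0.13, while *Ccdc36*, which acts with the axis in double-strand break formation, was -2.67 ± 0.12. The effect of CTCF HET in round spermatids minus that in spermatocytes was called below 0 by edgeR for 4 partners and above 0 for 3, with *Rec8* at -3.33 ± 0.60, *Smc3* at -1.20 ± 0.18, *Smc1b* at -1.09 ± 0.23 and *Fkbp6* at 1.88 ± 0.37. For BORIS KO it was below 0 for 6, among them *Rec8* at -1.46 ± 0.26, *Smc1b* at -0.93 ± 0.14, *Smc3* at -0.89 ± 0.18 and *Hfm1* at -0.76 ± 0.15, and above 0 for none. *Rec8* was near 1 CPM in WT spermatocytes, so its values rest on few counts there.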
